A study of Mus musculus with 8 samples.

Results

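Imprinted growth genes are genes of which only the copy from 1 parent is active. A list of 10 of them, drawn up as genes of embryonic mesenchyme, was followed here in the embryonic tongue. The 10 are H19, Dlk1, Meg3, Peg3, Mest, Plagl1, Grb10, Ndn, Zim1 and Peg10. The members are the probe sets, groups of short array oligonucleotides read as 1 value, whose platform annotation names 1 of these genes and no other. Of the 10 genes, 9 had at least 1 such probe set, out of 18193 genes in all. They held 35 probe sets, out of 34945 naming 1 gene. H19 had none, because the only set that lists it also lists Mir675, so its level was not analysed here.

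RNA came from tongue buds at embryonic day 13.5. The 4 mutant buds carried Wnt1-Cre and Alk5 fl/fl, and the 4 control buds carried Alk5 fl/fl with no Cre named; both are of strain C57BL/6J and of undetermined sex per the labels. Cre driven by Wnt1 acts in neural crest cells, which give rise to several cell types, among them the mesenchyme of the tongue. There it removes Alk5, the type I TGF-beta receptor also called Tgfbr1. The muscle precursors, vessel lining and epithelium of the bud are not targeted. Since no buds with Wnt1-Cre on an unfloxed background were measured, what Cre itself does and what loss of the receptor does cannot be told apart. In such bulk tissue, fewer cells of a type and less RNA per cell cannot be told apart either.

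An imprinted gene carries a DNA methylation mark set in the egg or the sperm, and the mark keeps 1 parental copy silent. Many such genes are highly active in embryonic mesenchyme, muscle and cartilage and are turned down after birth; in mice, several of them act on body growth, those active from the paternal copy mostly promoting it and those active from the maternal copy mostly restraining it. Plagl1, a zinc-finger transcription factor active from the paternal copy, binds near several other imprinted genes and has been placed at the centre of a network of them. The arrays measure RNA of both copies together, so which copy was read is not known.

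H19 is a long non-coding RNA of the maternal copy and the precursor of a microRNA, which lies within it on the reference and is the reason why its probe set names 2 genes. Both mature microRNAs are shown from RefSeq (GRCm38.p6, chr7, minus strand) because they mark the overlap that leaves H19 out. Capitals mark the seed, bases 2 to 8.
mmu-miR-675-5p: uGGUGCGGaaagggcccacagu
mmu-miR-675-3p: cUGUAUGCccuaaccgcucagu

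The promoters of the members with a probe set that differed most between the groups are shown from RefSeq (GRCm38.p6), each from 250 bases before to 50 after an annotated start of the gene, together with that of Peg3. Capitals mark CAGAC on either strand, a short element bound by the Smad proteins that carry the TGF-beta signal, and GGGG directly followed by CCCC, the element bound by Plagl1.
Plagl1, chr10:13090582-13090881, plus strand: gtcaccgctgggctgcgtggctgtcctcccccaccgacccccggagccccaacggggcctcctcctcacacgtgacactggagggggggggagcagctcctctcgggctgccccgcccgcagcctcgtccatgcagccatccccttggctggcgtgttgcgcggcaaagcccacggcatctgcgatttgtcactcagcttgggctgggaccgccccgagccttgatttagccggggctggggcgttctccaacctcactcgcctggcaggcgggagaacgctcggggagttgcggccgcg
Grb10, first start, chr11:12037371-12037670, minus strand: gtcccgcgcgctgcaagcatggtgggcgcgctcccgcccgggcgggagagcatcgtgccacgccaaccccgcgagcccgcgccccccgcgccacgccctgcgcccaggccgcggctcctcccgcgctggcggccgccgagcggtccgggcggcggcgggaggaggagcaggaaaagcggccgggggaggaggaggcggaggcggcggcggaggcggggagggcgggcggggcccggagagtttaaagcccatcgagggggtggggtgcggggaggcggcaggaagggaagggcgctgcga
Grb10, second start, chr11:12027922-12028221, minus strand: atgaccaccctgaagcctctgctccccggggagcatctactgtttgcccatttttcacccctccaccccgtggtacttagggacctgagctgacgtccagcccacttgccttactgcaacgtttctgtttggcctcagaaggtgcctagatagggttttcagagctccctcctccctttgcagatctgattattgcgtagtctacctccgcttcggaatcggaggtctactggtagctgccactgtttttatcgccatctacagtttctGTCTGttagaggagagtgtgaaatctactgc
Dlk1, chr12:109452573-109452872, plus strand: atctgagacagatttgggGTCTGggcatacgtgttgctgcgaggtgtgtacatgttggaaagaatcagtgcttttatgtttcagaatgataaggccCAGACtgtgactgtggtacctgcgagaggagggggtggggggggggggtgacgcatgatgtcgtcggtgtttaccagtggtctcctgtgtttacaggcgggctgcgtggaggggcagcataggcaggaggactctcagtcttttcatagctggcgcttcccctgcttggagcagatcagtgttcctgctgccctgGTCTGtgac
Peg3, chr7:6730370-6730669, minus strand: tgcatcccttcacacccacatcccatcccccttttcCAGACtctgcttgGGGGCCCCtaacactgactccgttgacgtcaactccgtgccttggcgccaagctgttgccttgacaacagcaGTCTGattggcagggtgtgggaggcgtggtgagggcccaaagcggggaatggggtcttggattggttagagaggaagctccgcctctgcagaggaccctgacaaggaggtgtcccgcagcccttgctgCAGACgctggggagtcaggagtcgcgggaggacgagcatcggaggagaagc
CAGAC stood 0 times in the Plagl1 promoter, 0 times at the first and 1 time at the second Grb10 start, and 3 times each in those of Dlk1 and Peg3. Of 32851 promoters of the same length 49.6% hold it on either strand, and so do 6 of the 12 promoters found for 8 member genes. The Plagl1 element stood only in the Peg3 promoter among these 12, against 1.08% of all promoters. The 2 starts of Grb10 differ in base composition, with 45 CpG pairs and 80.0% G and C at the first and 9 CpG pairs and 52.3% at the second, where the median over all promoters is 7 CpG pairs. These matches describe letters and say nothing of binding.

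The arrays are 1-colour Affymetrix arrays, and every value is a log2 signal per probe set as deposited. Array medians lay between 5.96 and 6.01, and correlations across genes were 0.996 to 0.998 among mutants, 0.995 to 0.997 among controls and 0.992 to 0.995 between the groups. Tgfbr1, the targeted gene, was higher in mutants on all 3 of its sets, by 0.39 on 1420895_at, its brightest, 0.82 on 1420893_a_at and 0.52 on 1420894_at (limma adjusted p = 0.00662, 0.0109 and 0.0367). The sources used here do not place its probes relative to the floxed part, so these values check neither the deletion nor the labels. Arrays of both groups also spread along an axis on which Malat1, a nuclear RNA, read 7.58, 8.28, 9.80 and 9.24 in mutants 1 to 4 and 9.73, 9.02, 7.49 and 7.11 in controls 1 to 4. Control 3 alone lacked signal of Y-linked genes. The labels number the buds without naming litters, so the p-values measure the spread between these samples, and the number of arrays limits the precision.

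Each gene was first read on its brightest probe set, the one with the highest mean over the 8 arrays. None of the 9 measured members passed an adjusted p of 0.05 on that set in limma, where 9.72% of all genes passed; 1 had an unadjusted p under 0.05, against 23.8% of all genes. Log2 changes of mutants against controls ran from -0.14 for Zim1 to 0.27 for Peg10, with a median of 0.041 beside -0.011 over all genes. In 0 of the 9 did the 4 mutant values lie apart from the 4 control values, which was so for 17.8% of all genes. A p that misses the threshold does not show equal levels, and the 95% intervals give what these arrays allow.

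**Figure D1:**
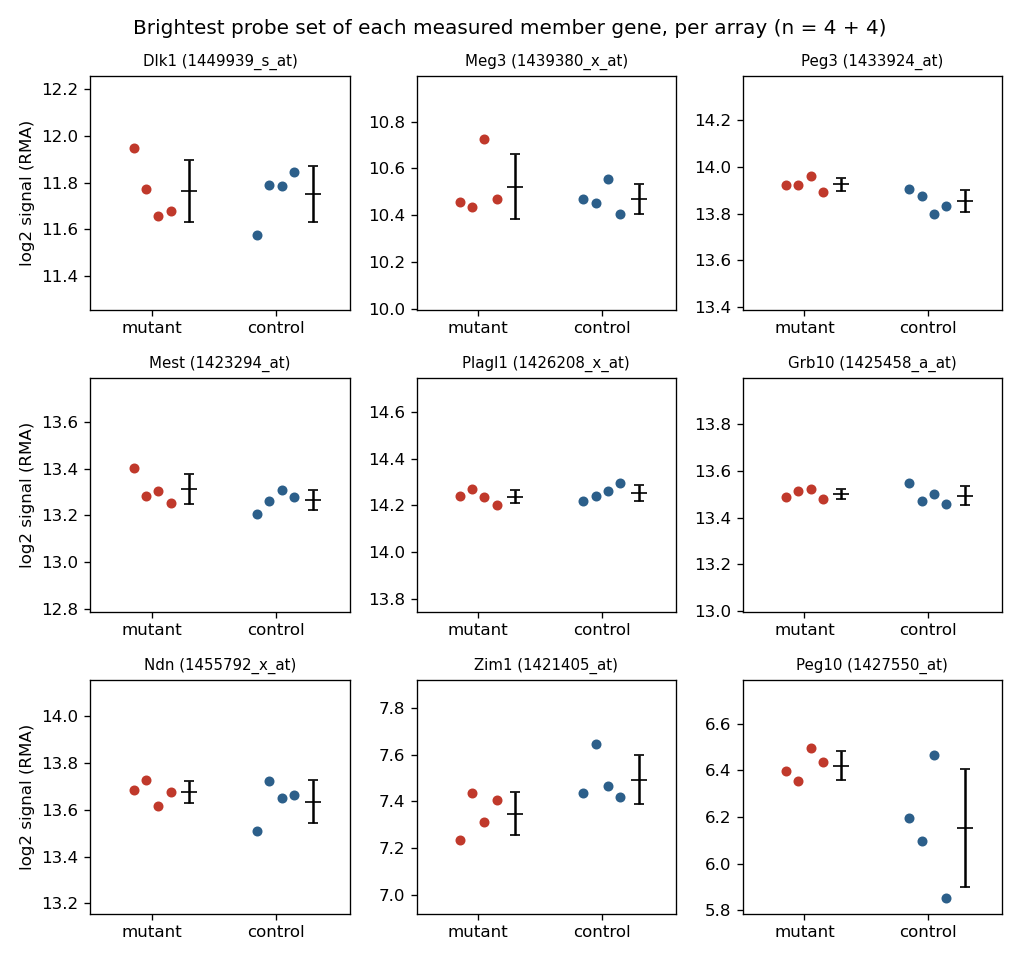
Log2 signal (y axis, a span of 1 log2 unit in each panel) of the brightest probe set of each of the 9 measured member genes on 4 mutant (left, red) and 4 control (right, blue) arrays; the bars give mean and SD. Mutant and control points overlap in all 9 panels, and the widest spread is that of the Peg10 controls, 5.85 to 6.47.

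The non-coding RNA Meg3, which is made from the maternal copy beside Dlk1, read 10.46, 10.44, 10.73 and 10.47 in mutants and 10.47, 10.45, 10.55 and 10.40 in controls on its brightest set. Mutant 3 was the highest array, and the other mutants lay within the control range. The log2 change was 0.053 (95% interval -0.11 to 0.22, limma adjusted p = 0.717). Meg3 had 11 probe sets in all, more than any other member, whose log2 changes ran from -0.094 to 0.29, none of them called. On 1452905_at the mutants read 9.63, 9.70, 9.93 and 9.82 and the controls 9.61, 9.58, 9.55 and 9.42. There all mutants lay above all controls, by a log2 change of 0.23 (limma adjusted p = 0.135 over all probe sets). On 1436713_s_at the log2 change was 0.29, and the groups overlapped; it was 0.17 without control 4 and 0.50 without controls 1 and 3.

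Dlk1, made from the paternal copy, encodes a membrane protein with EGF-like repeats that is related to the ligands of Notch. It holds back the maturation of fat precursors. Its brightest set, 1449939_s_at, read 11.95, 11.77, 11.66 and 11.68 in mutants and 11.57, 11.79, 11.79 and 11.85 in controls. The groups overlapped throughout, with mutant 1 the highest and control 1 the lowest array. The log2 change was 0.014 (95% interval -0.17 to 0.20, limma adjusted p = 0.942), and it turned to -0.047 without mutant 1 and -0.044 without control 1. Its second set, 1442724_at, read 8.22, 8.51, 8.48 and 8.43 in mutants and 8.23, 8.09, 7.87 and 7.91 in controls. Mutants 2 to 4 lay above all controls, while mutant 1 and control 1 were nearly equal. The log2 change on that set was 0.39 (SE 0.097) with an adjusted p of 0.0518 in limma, just outside the threshold. It passed without mutant 1 (0.45, limma adjusted p = 0.035) and without control 1 (0.45, limma adjusted p = 0.0289). With any other array left out it missed the threshold, at limma adjusted p-values of up to 0.14.

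Grb10 encodes an adaptor protein that damps the receptors of insulin and insulin-like growth factors, made from the maternal copy in most tissues and from the paternal copy in neurons. On its brightest set, 1425458_a_at, it read 13.49, 13.51, 13.52 and 13.48 in mutants and 13.55, 13.47, 13.50 and 13.46 in controls. These 8 values span less than 0.1 log2 unit, and the change was 0.0069 (95% interval -0.09 to 0.11, limma adjusted p = 0.947). Its 2 other sets read differently. On 1425457_a_at the mutants read 8.38, 8.61, 8.72 and 8.42 and the controls 8.24, 8.30, 8.15 and 8.21. On 1430164_a_at the mutants read 6.63, 6.78, 7.11 and 6.76 and the controls 6.47, 6.49, 6.39 and 6.44. On both sets every mutant lay above every control, a separation shown upwards by 7.82% of all probe sets. The log2 changes were 0.31 (SE 0.081, limma adjusted p = 0.0637) and 0.37 (SE 0.094, limma adjusted p = 0.0555), and neither passed. Both passed without mutant 1, the lowest mutant on both sets (0.36 and 0.43). With any other array left out both missed the threshold, at limma adjusted p-values of up to 0.163 and 0.124.

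Plagl1 read 14.24, 14.27, 14.24 and 14.20 in mutants and 14.22, 14.24, 14.26 and 14.30 in controls on its brightest set, 1426208_x_at. The groups overlapped, with a log2 change of -0.016 (95% interval -0.12 to 0.08, limma adjusted p = 0.864). Its second set, 1450533_a_at, read 9.82, 10.07, 10.02 and 10.04 in mutants and 9.58, 9.76, 9.54 and 9.49 in controls. All 4 mutants lay above all 4 controls, with means of 9.99 ± 0.11 and 9.59 ± 0.12 (SD, n = 4 each). This set rose by 0.39 on the log2 scale (SE 0.079, limma adjusted p = 0.0215), the only member probe set that was called, where 5.94% of all probe sets were, 2.69% higher and 3.25% lower. The call was lost without mutant 2 (0.37), mutant 3 (0.38), mutant 4 (0.38), control 3 (0.38) or control 4 (0.36), at limma adjusted p-values of up to 0.0691, and without controls 1 and 3 together (0.36, limma adjusted p = 0.126). It was also lost with the replicate number as a block (limma adjusted p = 0.0676) and without variance moderation. The third set, 1438588_at, read 5.86, 6.19, 6.77 and 6.39 in mutants and 6.50, 6.15, 5.93 and 6.03 in controls, with a log2 change of 0.15 (limma adjusted p = 0.731). With sets ending in _s_at or _x_at left out, the dimmer sets stand for Plagl1 and Dlk1, and both genes were then called over all genes (0.39 each, limma adjusted p = 0.0128 and 0.0339).

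**Figure D2:**
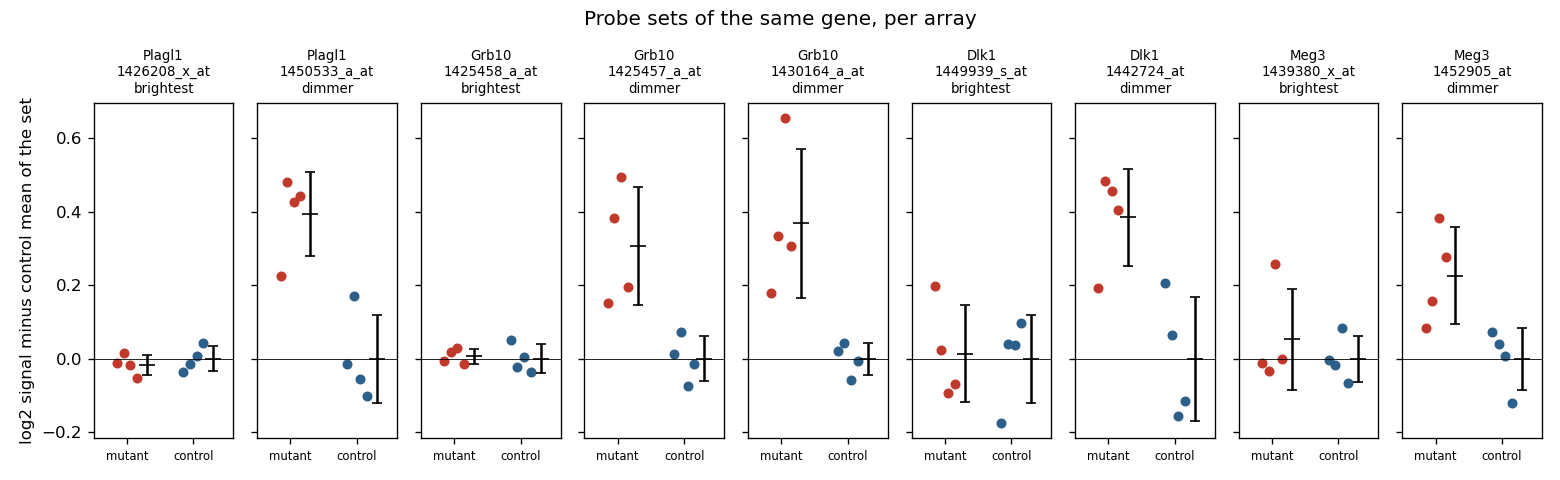
Log2 signal minus the control mean of the same set (y axis) on 4 mutant (left, red) and 4 control (right, blue) arrays for 9 probe sets of Plagl1, Grb10, Dlk1 and Meg3; the bars give mean and SD. The brightest set of each gene lies around 0 in both groups. The dimmer sets drawn for Plagl1 and Grb10 and set 1452905_at of Meg3 have all mutants above all controls. Dimmer sets were drawn only where their unadjusted limma p was low, so the separation follows in part from that choice. Set 1438588_at of Plagl1 and the other sets of Meg3, where the groups overlapped, are not drawn.

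Whether sets of the same gene differed from each other was tested on the per-array difference between each other set and the brightest set of its gene, a test chosen after these values were seen and fitted over all 16752 such pairs. No member pair passed the adjusted threshold, where 1.09% of all pairs did; 5 of the 26 member pairs had an unadjusted p under 0.05, against 12.8% of all pairs. These were 4 higher and 1 lower, beside 7.32% and 5.47% of all pairs. The same 5 pairs, the Plagl1 pair, both Grb10 pairs, Meg3 1452905_at and Ndn 1456575_at, had no overlap between the groups, beside 8.74% of all pairs, 5.07% with mutants above and 3.67% with mutants below. The Plagl1 pair came nearest, with the second set higher relative to the brightest by 0.41 in mutants (SE 0.092, limma adjusted p = 0.0877). The Grb10 pairs differed by 0.36 (limma adjusted p = 0.137) and 0.30 (limma adjusted p = 0.157), and the Dlk1 pair by 0.37 (limma adjusted p = 0.395). The sets whose identifiers end in _x_at or _s_at hold probes that can match other transcripts, those in _a_at match several transcripts of 1 gene, and the sources used here do not say which transcripts these are.

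Peg3 encodes a zinc-finger protein of the paternal copy that is found in stem and progenitor cells of many tissues. On 1433924_at it read 13.92, 13.92, 13.96 and 13.89 in mutants and 13.91, 13.88, 13.80 and 13.83 in controls. Control 1 fell within the mutant range, and the log2 change was 0.072 (95% interval -0.03 to 0.18, limma adjusted p = 0.387). On 1417356_at the log2 change was 0.17, with mutants at 12.23, 12.34, 12.47 and 12.21 and controls at 12.22, 12.13, 12.10 and 12.13 (limma adjusted p = 0.204). Only control 1 reached the mutants there. Set 1417355_at spread far more, with 12.16, 12.39, 13.16 and 12.99 in mutants and 12.91, 12.71, 12.04 and 11.98 in controls. Its order of arrays within each group is that of Malat1, with mutant 3 highest and mutant 1 lowest, and control 1 highest and control 4 lowest, and the part of that axis in the result was not tested. The log2 change of that set was 0.27 with a 95% interval of -0.36 to 0.89, and it ran from 0.10 without mutant 3 to 0.44 without mutant 1.

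Zim1, a zinc-finger gene of the maternal copy that neighbours Peg3, read 7.24, 7.43, 7.31 and 7.41 in mutants and 7.44, 7.65, 7.46 and 7.42 in controls on its single set. It had the lowest log2 change of the 9 genes at -0.14 (SE 0.069, limma adjusted p = 0.241), with mutant 2 within the control range. Without control 2, the highest array, it was -0.093. Of the other genes of that cluster, Usp29 had a log2 change of 0.030 and Zim3 of -0.028, and neither passed.

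Ndn encodes necdin, a protein of the MAGE family that restrains cell division and is made from the paternal copy. Of its 8 sets, 5 had mean log2 signals above 13, and their log2 changes ran from 0.024 to 0.048. On the brightest, 1455792_x_at, mutants read 13.68, 13.73, 13.62 and 13.67 and controls 13.51, 13.72, 13.65 and 13.66, a log2 change of 0.041 (95% interval -0.09 to 0.17, limma adjusted p = 0.72). Control 1 was the lowest array, and the rest lay together. The other 3 sets read under 5, among them 1456575_at at a log2 change of -0.23 (limma adjusted p = 0.21), the only member set lower in mutants at an unadjusted p under 0.05, where 9.52% of all sets were.

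Mest encodes an enzyme of the alpha/beta hydrolase family made from the paternal copy and had 1 set. It read 13.40, 13.28, 13.31 and 13.25 in mutants and 13.21, 13.26, 13.31 and 13.28 in controls. The groups overlapped, with a log2 change of 0.048 (95% interval -0.07 to 0.16, limma adjusted p = 0.63), and 0.017 without mutant 1. Peg10, a gene derived from a retrotransposon, made from the paternal copy and needed for the placenta, also had 1 set, at 6.40, 6.35, 6.50 and 6.43 in mutants and 6.19, 6.10, 6.47 and 5.85 in controls. Mutants lay close together, and controls spread over a wider range in which only control 3 reached the mutants. The log2 change was 0.27 (SE 0.11, limma adjusted p = 0.183). Without control 3, the array that lacks Y-linked signal, it was 0.37 and passed (limma adjusted p = 0.0337), and without controls 1 and 3 it was 0.44 (limma adjusted p = 0.0239). Without control 4, the lowest array, it was 0.17, short of the threshold (limma adjusted p = 0.324).

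Of the 35 member sets, 26 had a positive log2 change, beside 17189 of all 34945 sets. At an unadjusted p under 0.05, 9 were higher in mutants, against 10.1% of all sets, and these came from 6 genes; in either direction the share over all sets was 19.6%. In 5 sets all mutants lay above all controls and in 0 below, where 7.82% and 6.89% of all sets did so, 14.7% together. Among the 5 are both dimmer sets of Grb10 and the Peg3 set 1447732_x_at. That Peg3 set averaged 3.30 in mutants and 3.08 in controls, near the lowest value on the arrays, 2.47. The median log2 change was 0.048 over the 35 and -0.0023 over all sets. Sets of 1 gene share its RNA and are no replicates of each other.

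**Figure D3:**
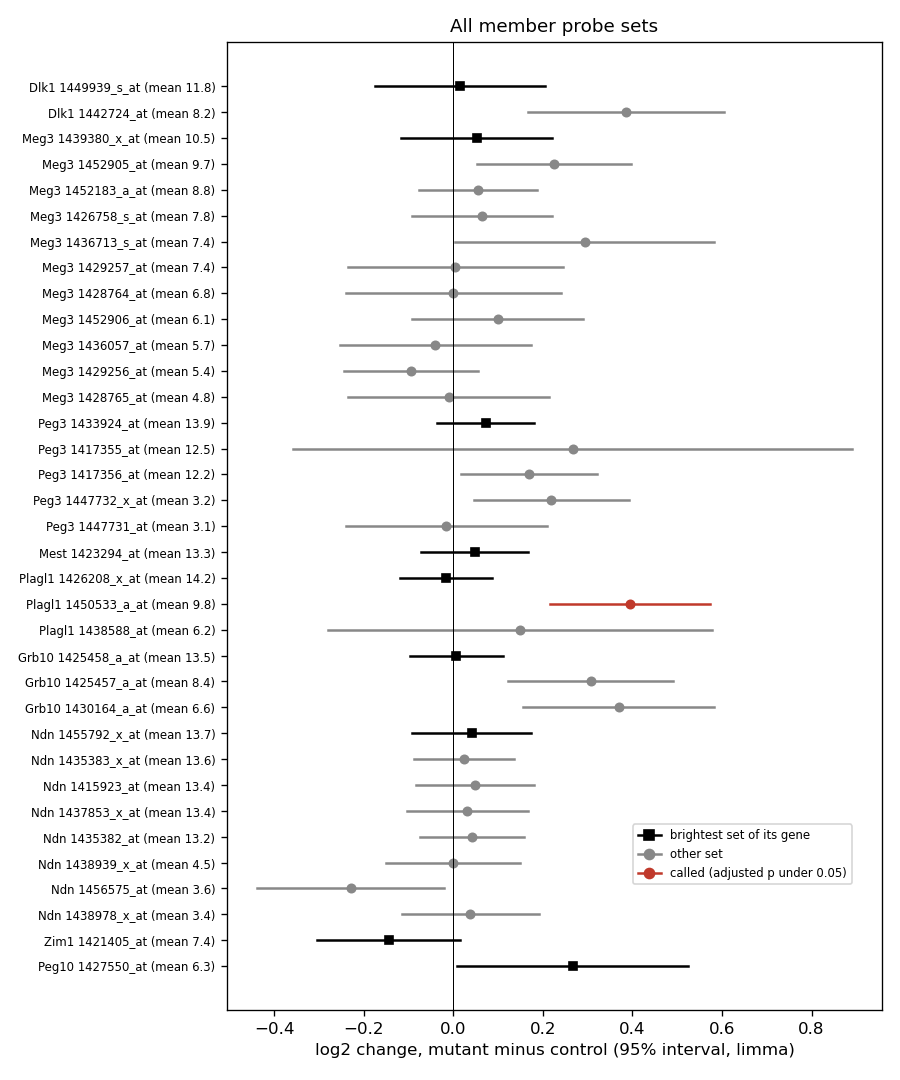
Log2 change of mutants minus controls (x axis) with its 95% limma interval for the 35 member probe sets, grouped by gene and labelled with the mean log2 signal. Black squares are the brightest set of each gene, grey circles the other sets, and red is the set of Plagl1 that was called at 0.39; the brightest sets lie between -0.14 and 0.27.

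The size of a change also followed the level of the probe set, over all sets. Of the 303 sets with a mean log2 signal of 13 or more, 2.64% were called, and 95% of them had an absolute log2 change under 0.14. Of the 7833 sets between 7 and 9, 10.2% were called, and the same bound was 0.51. The share called was 1.08% under 5, 4.84% from 5 to 7, 9.67% from 9 to 11 and 7.02% from 11 to 13. The member sets at 13 or more were 9 in number, from Peg3, Mest, Plagl1, Grb10 and Ndn, with log2 changes of -0.016 to 0.072. The highest signal on any array was 14.75. Whether the scale limits differences of such bright sets was not tested.

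**Figure D4:**
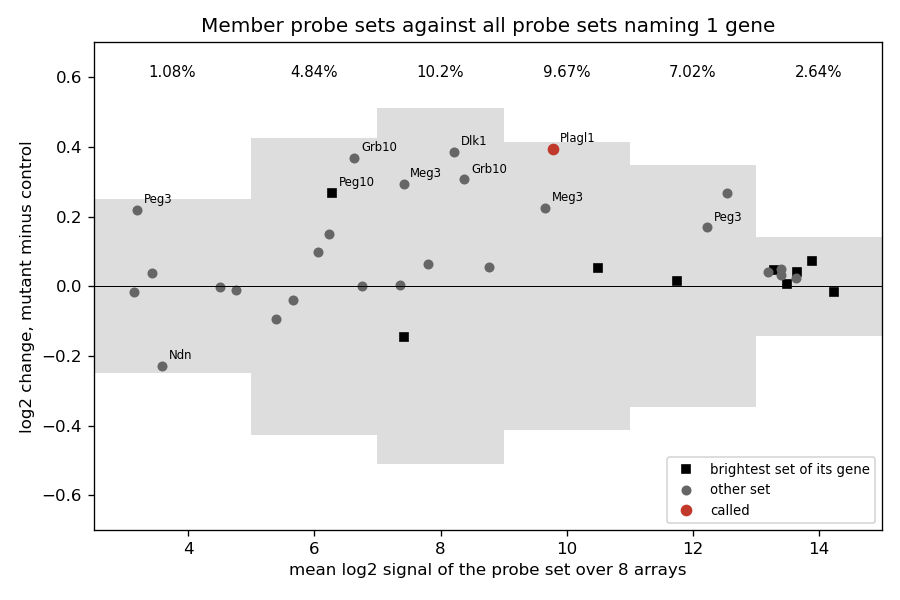
Log2 change of mutants minus controls (y axis) against the mean log2 signal (x axis) of the 35 member sets. The grey band holds 95% of all probe sets naming 1 gene at that level, and the percentages give the share of all sets called there; 9 member sets sit at 13 or more, where the band is narrowest at 0.14, and the called set of Plagl1 stands at 0.39.

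Markers of the cell types of the bud were read on the same arrays, each list as the mean log2 level of its genes. A marker counted as risen or fallen passed an adjusted p of 0.05 in limma. Over all genes, 4.2% rose and 5.52% fell by that measure. Markers that moved without passing are not counted. Mean log2 levels ran from 6.03 to 13.69 in mutants and 6.48 to 14.05 in controls over the 10 muscle genes, and from 5.63 to 13.46 in mutants and 5.66 to 13.88 in controls over the 10 mesenchymal genes. The brightest muscle genes, Actc1 and Myh3, averaged 13.69 and 12.43 in mutants and 14.05 and 13.11 in controls, and the brightest mesenchymal genes, Col1a2 and Vim, 13.46 and 13.27 in mutants and 13.88 and 13.42 in controls. Of 10 skeletal muscle markers 6 fell, among them Tnnt3 by 1.23 on the log2 scale, and the list mean was 10.01 to 10.32 in mutants and 10.54 to 10.84 in controls. Of 10 neural crest mesenchyme markers 1 rose (Prrx1, by 0.76) and 2 fell (Col1a1, by 0.65, and Col1a2, by 0.42), with list means of 10.07 to 10.27 in mutants and 10.13 to 10.39 in controls. Of 7 endothelial markers 2 rose (7.91 to 8.24 in mutants, 7.76 to 7.86 in controls), and of 7 macrophage and leukocyte markers 4 fell (7.14 to 7.66 in mutants, 7.71 to 7.79 in controls). Of 7 neuronal markers 2 rose and 3 fell (7.71 to 7.82 in mutants, 7.93 to 8.13 in controls). Of 4 Schwann cell and glial markers 2 fell (8.20 to 8.57 in mutants, 8.60 to 8.97 in controls), and of 6 smooth muscle and pericyte markers 3 fell (8.51 to 8.84 in mutants, 9.01 to 9.11 in controls). Of 8 epithelial markers 1 fell (9.78 to 10.33 in mutants, 10.18 to 10.41 in controls), and of 5 cartilage markers 1 rose (7.04 to 7.16 in mutants, 6.84 to 6.99 in controls). Of 5 erythroid markers 0 passed in limma (8.52 to 8.89 in mutants, 8.70 to 8.95 in controls). Of these 5, 0 had an unadjusted p under 0.05, against 23.8% of all genes. These lists moved on the same arrays as the members, and their part in the members' values was not tested.

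Other imprinted genes, listed from textbook knowledge, give the setting of the members. Of 53 listed, 44 were measured. None rose, where 4.2% of all genes did, and 8 fell, where 5.52% of all genes did. Gnas, Magel2, Asb4 and Mkrn3 were each called higher in 1 or 2 of the alternative fits. At an unadjusted p under 0.05, 6 were higher (11.3% of all genes) and 12 lower (12.5% of all genes). All mutants lay above all controls in 5 (8.92% of all genes) and below them in 9 (8.87% of all genes). The median log2 change was -0.0068, beside -0.011 over all genes. Of the 8, 7 are on the list of the maternal copy and 1, Nap1l5, on that of the paternal copy, out of 25 and 19 measured. Several of the 8 are known to be imprinted mainly in placenta or brain, and whether they are imprinted in the tongue was not measured.

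Nap1l5, a gene of the nucleosome assembly protein family made from the paternal copy, read 7.11, 6.93, 7.15 and 6.86 in mutants and 8.29, 7.86, 7.60 and 7.97 in controls. It fell by 0.92 on the log2 scale (SE 0.13, limma adjusted p = 0.00306), with all mutants below all controls. Calcr, the calcitonin receptor, averaged 4.76 ± 0.21 in mutants and 5.71 ± 0.27 in controls (SD, n = 4 each), again without overlap. It fell by 0.96 (SE 0.14, limma adjusted p = 0.00334), and both means lie below the array medians. Slc22a2, a transporter of organic cations that neighbours Igf2r, averaged 5.73 ± 0.26 in mutants and 6.69 ± 0.32 in controls (SD, n = 4 each), a fall by 0.96 (limma adjusted p = 0.00739). Its mutant mean also lies below the array medians. Atp10a, a lipid-moving ATPase gene near Ube3a, fell by 0.49 (limma adjusted p = 0.0045) on a set ending in _x_at; its value without such sets, -0.28, missed the threshold (limma adjusted p = 0.165).

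The 4 smaller falls lay close to the threshold. Cd81, a tetraspanin, changed by -0.21, Gatm, an enzyme of creatine synthesis, by -0.30, Phlda2, which restrains growth of the placenta, by -0.34 and Osbpl5, a lipid-binding protein, by -0.22, at limma adjusted p-values of 0.04 to 0.0485. All 4 genes missed the threshold in 7 of their 8 leave-one-out fits, at adjusted p-values of up to 0.126 in limma. In Phlda2 the groups overlapped, since control 1 read 8.26 and the other controls 8.60 to 8.63, against 8.06 to 8.29 in mutants. Cd81, Phlda2 and Osbpl5 belong to the same cluster as Cdkn1c, an inhibitor of cell cycle kinases and a member of the same growth network. The other genes measured in that cluster did not pass and had log2 changes of both signs. These were 0.18 for Tssc4, 0.18 for Kcnq1ot1, 0.065 for Nap1l4 and 0.033 for Kcnq1. Slc22a18 had -0.074, Ascl2 -0.13 and Cdkn1c -0.016.

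The best known partners of the members did not pass. Igf2, the growth factor beside H19, averaged 14.02 ± 0.015 in mutants and 14.00 ± 0.075 in controls (SD, n = 4 each), a log2 change of 0.017 (95% interval -0.10 to 0.13, limma adjusted p = 0.881). Cdkn1c averaged 14.02 ± 0.12 in mutants and 14.03 ± 0.095 in controls, a log2 change of -0.016 (95% interval -0.18 to 0.15). Igf2r, the receptor that clears Igf2, read 10.96, 11.50, 11.83 and 11.77 in mutants and 11.69, 11.69, 10.84 and 10.93 in controls, a log2 change of 0.23 with a 95% interval of -0.33 to 0.78. Mutant 1 was low and controls 1 and 2 were high, as for Malat1, whose part was not tested. Of the 8 listed partners of the network, 0 passed in limma, where 9.72% of all genes did. At an unadjusted p under 0.05 there were 2, against 23.8% of all genes. The log2 changes of the 8 ran from -0.21 to 0.23.

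Within the clusters around the members, log2 changes of both signs stood beside each other. Over all genes, 8482 log2 changes were positive and 9711 negative, so mixed signs are no trait of these clusters. Beside Dlk1 and Meg3, the non-coding RNA Rian had a log2 change of -0.18 (limma adjusted p = 0.194) and Mirg of 0.018. Around Ndn, the values were 0.25 for Magel2 (limma adjusted p = 0.0888), 0.19 for Mkrn3 (limma adjusted p = 0.0987) and -0.044 for Snrpn. Around Peg10, they were -0.21 for Sgce (limma adjusted p = 0.191) and 0.28 for Asb4 (limma adjusted p = 0.0946), while Calcr fell by 0.96. Beside Mest, they were 0.040 for Copg2 and -0.21 for Klf14 (limma adjusted p = 0.0762). Apart from Calcr and Atp10a, none of the genes measured in these 4 clusters or in that of Peg3 passed.

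**Figure D5:**
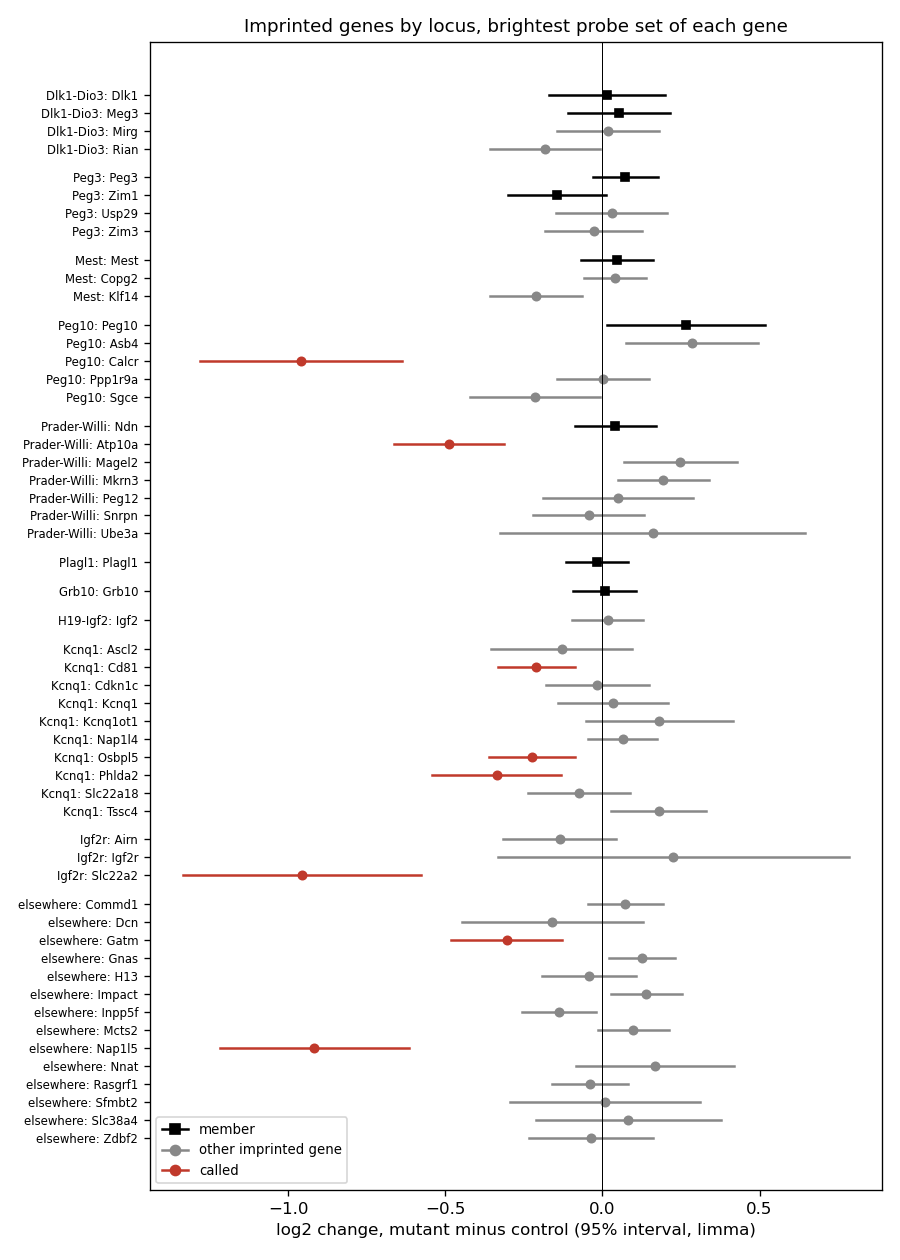
Log2 change of mutants minus controls (x axis) with its 95% limma interval for the 9 members (black squares) and 44 other imprinted genes (grey circles), grouped by imprinted cluster, with called genes in red. The 8 called genes all lie below 0, from -0.96 for Calcr to -0.21 for Cd81, and the 9 members lie between -0.14 and 0.27.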

How the data were processed

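RNA of 4 mutant and 4 control tongue buds was hybridised to Affymetrix arrays, per the labels' protocols. The deposited values are log2 signals per probe set, for which the submitters' processing notes name RMA without settings. As background, RMA makes the distributions of arrays alike, which can take away a shift shared by most genes. Of 45101 probe sets, 34945 name 1 gene in the platform annotation; 932 naming several and 9160 naming none were left out. No genome build is named for the arrays.

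limma (version 3.58.1, R version 4.3.3) compared mutants with controls by lmFit and eBayes, two-sided, without a filter on dim sets and with Benjamini-Hochberg adjustment, over 18193 genes by brightest probe set and over all 34945 sets. A call is an adjusted p of 0.05, and intervals are 95% intervals. Alternatives covered the replicate block, normalization, dim sets, moderation, arrays left out and the choice of probe set.

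By rule, all members, their called sets, and other imprinted genes that were called or are Igf2, Cdkn1c, Igf2r, Rian or Sgce are named. Further sets, neighbours, markers and the printed promoters were picked after their values were seen. The rule for genes of like pattern needs a called member gene and so named none. Members, lists and the alternative without controls 1 and 3 were chosen with earlier results of these data known.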

Additional observations from a re-analysis of the deposited data

Results flagged for a closer look

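Within 1 group, 2 arrays stood far from the other 3 among the 96 groups of values examined, where chance alone marks about 1 in 20. For Meg3 on its brightest set 1439380_x_at, mutant 3 read 10.73, and the other mutants read 10.44 to 10.47. For Phlda2, control 1 read 8.26, and the other controls read 8.60 to 8.63.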

How the results depend on the processing

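No member gene was called in the main comparison. The count was 2 (Plagl1 at a log2 change of 0.39 and Dlk1 at 0.39) with sets ending in _s_at or _x_at left out, 1 with the mean of all sets of a gene (Dlk1, 0.20), 1 without controls 1 and 3 together (Peg10), 0 to 1 with 1 array left out and 0 in the other alternatives; over all genes 1681, 1461 and 1218 were called in the first 3 of these, against 1768. The 1 called member set became 0 with the replicate block and without variance moderation, 2 with repeated quantile normalization or median centring, 4 with trend and robust options or with sets below the median level left out, and 0 to 4 with 1 array left out; leaving out sets ending in _s_at or _x_at, added after seeing the data, kept the count at 1. Over all sets 1917 were called with quantile normalization, 2179 with centring, 2613 with trend and robust options, 2557 with dimmer sets left out and 1388 without moderation, against 2076. The 8 called other imprinted genes became 4 with the replicate block, 5 without variance moderation and 4 to 7 with 1 array left out; those called lower were 4 to 6 with 1 array left out and 5 without controls 1 and 3. With trend and robust options 10 were called, 9 of them lower; without genes below the median level 8 were called, 6 of them lower. The genes called higher were Gnas (0.13, both these fits), Magel2 (0.25 without the dimmer genes, 0.31 without control 4), Asb4 (0.35 without mutant 1, 0.21 with the mean of all sets) and Mkrn3 (0.29 without controls 1 and 3). The cause of these shifts was not tested. Over all genes 966 passed with the replicate block and 1143 to 1583 with 1 array left out, and over all sets 697, 1194 to 1705 and, without controls 1 and 3, 1201.

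Small log2 changes turned sign. Dlk1 was -0.054 without controls 1 and 3 and -0.047 to 0.050 with 1 array left out; Meg3 was -0.016 to 0.082, Grb10 -0.0054 to 0.024 and Ndn -0.0016 to 0.070 with 1 array left out. Ndn was -0.016 without controls 1 and 3 and -0.00059 with the mean of all sets. Plagl1 was 0.00044 with median centring, 0.18 with the mean of all sets and 0.39 with _s_at and _x_at sets left out. Plagl1 set 1438588_at was -0.0069 to 0.30 with 1 array left out.

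Same-numbered mutants and controls correlated at -0.40, 0.017, -0.18 and -0.16 in their deviations from group means. Mutant 1 correlated at 0.33 with control 3, and mutant 3 at 0.31 with control 1. These deviations include the axis on which Malat1 varied, so they cannot show whether the replicate numbers pair the samples. The labels name no litters.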
